A study of Homo sapiens with 30 samples.

Results

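The transcripts of 8 genes of the epidermal growth factor (EGF) system were followed in PC3, a cell line grown from a human prostate carcinoma, among 58735 genes in the deposited count table. They are 6 ligand genes (AREG, EPGN, BTC, HBEGF, TGFA and EREG) and 2 receptor genes (EGFR and ERBB2). The members were chosen by family, and the family was selected on results already known from these libraries: AREG and EPGN had stood among the genes with higher counts after SGI-1776-VHL-02 at 1500 nM than in DMSO. That comparison is therefore described here with no test, and so are AREG and EPGN wherever those 1500 nM libraries enter. The DMSO libraries entered that choice as well, so the p-values of AREG and EPGN against DMSO are not independent of it. All 8 members passed the filter on low counts.

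Sequencing covered 5 groups of 6 libraries each, 30 in all, from cells treated for 48 h. They received SGI-1776-VHL-02 at 1500 nM, SGI-1776-VHL-02 at 3750 nM, SGI-1776 at 1500 nM, SGI-1776 at 3750 nM or DMSO, the solvent. SGI-1776 blocks the PIM family of serine/threonine kinases, which help cells survive and grow. The name of SGI-1776-VHL-02 joins it to VHL, a ubiquitin ligase; such a degrader, or PROTAC, links a target protein to the ligase that marks it for destruction. The compound is called the PROTAC below, and the question is how the EGF-family transcripts respond to the inhibitor and to the degrader made from it. Each group holds 3 libraries labelled Rep 1 and 3 labelled Rep 2, and nothing in the labels says which came from separate cultures, so p-values measure the spread between libraries, which may in part be technical.

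Ligands of this family are made as membrane-anchored precursors that are cut by surface proteases and then bind receptors on the same or a neighbouring cell. AREG, EPGN and TGFA bind EGFR, while BTC, HBEGF and EREG bind EGFR and ERBB4. ERBB2 has no known ligand of its own and signals by pairing with the other receptors. Binding activates the RAS-MAPK and PI3K-AKT pathways, and several of the ligand genes are themselves induced by RAS-MAPK signalling. In the prostate, epithelial cells and their carcinomas use EGFR ligands as growth signals.

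Library totals ranged between 22520292 and 48968707 counts. Markers fit an epithelial line: KRT8 lay between 471 and 591 CPM (counts scaled to a common library size) over all libraries and EPCAM between 87.9 and 117 CPM. KLK3, a secretory gene of differentiated prostate epithelium, was at 0 in every library. Of the markers of other cell types, CD3E, CDH5, COL1A2, PDGFRB, PTPRC and CD14 stayed at or under 0.615 CPM, whereas COL1A1 had 27.9 to 63.6 CPM and PECAM1 3.86 to 6.21 CPM. Rep 2 libraries held 0.296% to 1.67% mitochondrial counts and Rep 1 libraries 1.94% to 3.96%. The 4 libraries under 0.5% stood apart, and a tested call that is lost without them is named beside its value.

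Of the ligand genes 4 lie side by side on chromosome 4 (GRCh38). EPGN (ENSG00000182585; chromosome 4, 74308473 to 74315307, plus strand) is followed after 49.8 kb by EREG (ENSG00000124882; 74365143 to 74388751, plus strand). AREG (ENSG00000109321; 74445134 to 74455009, plus strand) begins 56.4 kb farther on, and BTC (ENSG00000174808; 74744759 to 74794686, minus strand) 290 kb beyond AREG, so that the 4 genes span 486 kb. HBEGF (ENSG00000113070) lies on chromosome 5, 140332843 to 140346631, minus strand, and TGFA (ENSG00000163235) on chromosome 2, 70447280 to 70554193, minus strand. EGFR (ENSG00000146648) lies on chromosome 7, 55019021 to 55211628, plus strand. ERBB2 (ENSG00000141736) lies on chromosome 17, 39687914 to 39730426, plus strand. Reads on ERBB2 can overlap MIEN1 (341 to 782 counts a library) and PGAP3 (276 to 543 counts) on the opposite strand, and it is not known whether strand was used in counting, so the ERBB2 count (2624 to 4875) is uncertain to that extent.

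The promoters of AREG, EPGN, HBEGF and EGFR are shown because, of the 6 members called between the compounds at 3750 nM, these 4 had the largest differences. Sequences are from RefSeq (GRCh38.p14), 250 bases before to 50 after the annotated start, on the gene's strand.
AREG, chr4:74444886-74445185, plus strand: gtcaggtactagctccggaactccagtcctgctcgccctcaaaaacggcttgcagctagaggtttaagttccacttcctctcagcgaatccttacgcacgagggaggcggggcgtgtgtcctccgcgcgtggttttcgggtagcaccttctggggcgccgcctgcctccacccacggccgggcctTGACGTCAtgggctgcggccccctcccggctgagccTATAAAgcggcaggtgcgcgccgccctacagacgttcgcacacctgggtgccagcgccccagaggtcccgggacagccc
EPGN, chr4:74308220-74308519, plus strand: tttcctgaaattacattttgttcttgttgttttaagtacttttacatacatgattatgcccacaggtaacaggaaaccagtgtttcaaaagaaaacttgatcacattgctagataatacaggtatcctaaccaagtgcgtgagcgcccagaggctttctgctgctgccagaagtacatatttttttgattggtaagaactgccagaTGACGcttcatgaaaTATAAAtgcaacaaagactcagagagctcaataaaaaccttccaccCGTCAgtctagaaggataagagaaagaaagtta
HBEGF, chr5:140346554-140346853, minus strand: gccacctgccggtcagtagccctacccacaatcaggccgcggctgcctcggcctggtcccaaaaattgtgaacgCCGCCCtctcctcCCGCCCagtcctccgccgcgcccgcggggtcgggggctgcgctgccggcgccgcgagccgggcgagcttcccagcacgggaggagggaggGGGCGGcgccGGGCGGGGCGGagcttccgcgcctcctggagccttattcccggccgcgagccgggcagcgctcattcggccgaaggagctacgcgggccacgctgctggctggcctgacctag
EGFR, chr7:55018767-55019066, plus strand: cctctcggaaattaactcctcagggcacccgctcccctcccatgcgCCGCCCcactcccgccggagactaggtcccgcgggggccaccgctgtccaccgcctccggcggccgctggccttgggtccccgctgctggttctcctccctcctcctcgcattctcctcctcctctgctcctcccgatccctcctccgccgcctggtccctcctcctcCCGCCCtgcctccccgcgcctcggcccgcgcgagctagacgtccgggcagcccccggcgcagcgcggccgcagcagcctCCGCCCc
Capitals mark the full cAMP response element TGACGTCA and the TATA box TATAAA in AREG, the short form TGACG of that element (on either strand) and the TATA box in EPGN, and the GC box GGGCGG, on either strand, in HBEGF and EGFR. Of all 35116 RefSeq promoters, 1.85% hold TGACGTCA on either strand, 24.6% TGACG, 11.5% TATAAA and 45% GGGCGG, and every full element also contains the short form. Among the members only AREG held the full element, at bases -65 to -58 from the start. TATAAA stood at -29 to -24 in both AREG and EPGN, and at -32 to -27 in EREG, but in neither HBEGF nor the promoter shown for EGFR. HBEGF had 5 matches to the GC box, 2 of them sharing a base, and EGFR had 3. AREG had 1 as well, at -9 to -4 on the opposite strand, which is left in small letters above, and EPGN had 0. The bases G and C made up 37.7% of the EPGN promoter, against 66.3% in AREG and 75% in HBEGF. On both strands, TGANTCA was found in 7.71% of all promoters. The motif CCGGAA was found in 17.2% and CACGTG in 7.26%. None of the 3 was in the windows of EPGN, HBEGF or EGFR shown, and AREG held CCGGAA at -236 to -231. These matches are letters in a window and show nothing of which factor is bound.

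Levels between genes were compared per transcript length, as TPM (the length-scaled share of all transcripts in a library), computed here from the counts and the deposited gene lengths. In DMSO, AREG was the most abundant member at 166 ± 22.5 TPM (SD, n = 6), followed by TGFA at 89.6 ± 4.88 TPM and EGFR at 64.6 ± 6.31 TPM. ERBB2 had 40.7 ± 1.16 TPM and HBEGF 26.8 ± 2.80 TPM. EPGN (13.25 ± 1.10 TPM) and BTC (13.0 ± 0.487 TPM) could not be ordered, since their libraries overlapped, and EREG was lowest at 1.17 ± 0.179 TPM. Every other step in this order was wider than the spread, with no overlap between the libraries of neighbours. The spread does not cover an error in length. Each gene has 1 deposited length (12521 bases for EGFR, 10321 for ERBB2), while 11 EGFR and 22 ERBB2 transcripts are annotated. Which transcripts were expressed is not known, so the order, ratios and sums in TPM hold for the deposited lengths only.

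The order changed with the PROTAC at a single step. EPGN had 21.2 ± 0.466 TPM at 1500 nM and 21.8 ± 1.41 TPM at 3750 nM of the PROTAC, where BTC had 14.97 ± 0.733 and 15.5 ± 1.08 TPM, so EPGN stood above BTC in every library. At 3750 nM of the PROTAC the EPGN libraries overlapped those of HBEGF (23.3 ± 1.47 TPM). Within a library, EPGN over BTC was 1.42 ± 0.101 and 1.41 ± 0.1125 with the PROTAC at 1500 and 3750 nM, and 0.884 ± 0.130 and 0.742 ± 0.174 with SGI-1776 at these doses. In DMSO it was 1.02 ± 0.0762. These ratios, chosen after the values were seen, are described without a test.

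**Figure D1:**
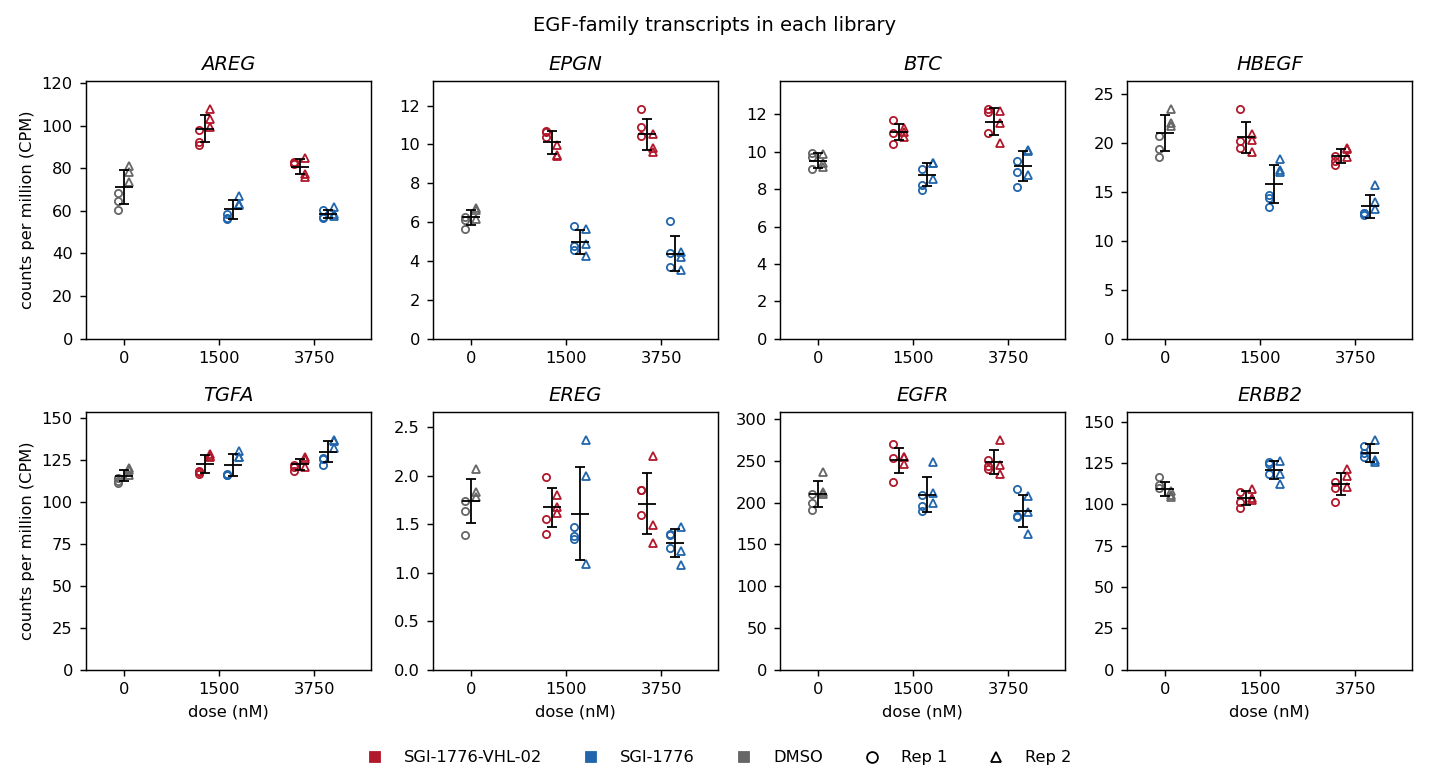
CPM of the 8 members (one panel each, axes from 0) in each of the 30 libraries, by dose in nM; circles are Rep 1, triangles Rep 2, and black bars the mean with its SD over 6 libraries. With SGI-1776-VHL-02 (red), AREG, EPGN, BTC and HBEGF lay above the SGI-1776 libraries (blue) of the same dose in every library, and ERBB2 lay below them. The share of all genes separated in this way was not computed. At adjusted p 0.05, 25.2% of all genes differed between the compounds at 1500 nM and 31.2% at 3750 nM. AREG and EPGN were chosen by their level in the red 1500 nM libraries.

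To see the response to the degrader at its higher dose, the PROTAC at 3750 nM was compared with DMSO. EPGN rose by 68.4%, BTC by 21.6%, EGFR by 18.1% and AREG by 13.7%, and no member fell. Of the 8 members 4 changed, where 21.8% of all 17499 tested genes did, and the members' median log2 fold change was 0.13, against 0.0025 over all genes. Calls are from edgeR's quasi-likelihood test with Benjamini-Hochberg adjustment over all tested genes, at 0.05, and each ± beside a log2 fold change is its standard error. All comparisons with DMSO share the same 6 DMSO libraries, so their values are given side by side and not correlated. These libraries also entered the choice of AREG and EPGN. The p-values of both genes against DMSO, and the member counts that include them, are therefore not independent of that choice.

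EPGN, the ligand epigen, had a lowest, median and highest value of 9.63, 10.5 and 11.8 CPM with the PROTAC at 3750 nM, and 5.64, 6.21 and 6.70 CPM in DMSO. The groups did not overlap. Its log2 fold change was 0.75 ± 0.09 (adjusted p = 1.6e-07), and it was the one member of the 4 that also passed when the 3 libraries of a Rep were summed to 1 sample (2 samples a group, adjusted p = 0.0126).

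BTC, betacellulin, had 10.5, 11.8 and 12.3 CPM (lowest, median, highest) with the PROTAC at 3750 nM, against 9.05, 9.57 and 9.96 CPM in DMSO, again with no overlap (log2 fold change 0.28 ± 0.06, adjusted p = 0.000393). EGFR, the receptor shared by all 6 ligands, had 234, 245 and 275 CPM with the PROTAC and 191, 210.5 and 236 CPM in DMSO, which overlapped narrowly (0.24 ± 0.06, adjusted p = 0.00509, but 0.12 with the correlation of libraries within a Rep estimated by limma). For AREG, amphiregulin, the values were 75.7, 82.1 and 84.9 CPM with the PROTAC and 60.5, 71.0 and 80.9 CPM in DMSO, which overlapped. Its log2 fold change was 0.18 ± 0.06 (adjusted p = 0.0178), but it was 0.35 within Rep 1 and 0.01 within Rep 2. The call was lost, at adjusted p between 0.0542 and 0.0918, without any 1 of the 3 DMSO libraries of Rep 1, and at 0.0635 without library 3 of Rep 2 of the PROTAC, and its log2 fold change then lay between 0.13 and 0.16. It was also lost with the estimated correlation (adjusted p = 0.0826).

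The other 4 members did not pass at 3750 nM of the PROTAC. TGFA, the first described ligand of EGFR after EGF itself, had a log2 fold change of 0.08 (95% interval 0.0057 to 0.16, adjusted p = 0.122, 0.00447 once Rep was a block, and 0.147 with the block on sums per Rep). HBEGF, heparin-binding EGF, had -0.17 (-0.31 to -0.03, adjusted p = 0.0814, 0.0247 once Rep was a block, and 0.143 with the block on sums per Rep), and passed without library 1 of Rep 1 of DMSO (-0.21, adjusted p = 0.032), library 3 of Rep 1 of SGI-1776 at 1500 nM or library 3 of Rep 2 of SGI-1776 at 3750 nM (-0.18 each, adjusted p = 0.0415 and 0.0452). ERBB2 had 0.04 (-0.04 to 0.12) and EREG, epiregulin, -0.02 (-0.34 to 0.29). The wide EREG interval goes with counts of 29 to 97 a library.

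At 1500 nM the PROTAC gave the values by which the family was chosen. AREG had 90.9, 98.8 and 108 CPM (lowest, median, highest) with the PROTAC, against 60.5, 71.0 and 80.9 CPM in DMSO, a log2 fold change of 0.47 ± 0.06. EPGN had 9.42, 10.2 and 10.7 CPM, against 5.64, 6.21 and 6.70 CPM in DMSO, or 0.69 ± 0.09. Neither gene's groups overlapped. BTC (0.21 ± 0.06) and EGFR (0.25 ± 0.06) were higher than in DMSO as well, TGFA had 0.08 ± 0.04, and HBEGF (-0.03 ± 0.07), EREG (-0.06 ± 0.15) and ERBB2 (-0.07 ± 0.04) had values below 0. Of all tested genes 1.92% were called in this comparison, and nothing about the members is read from it.

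To see what the inhibitor alone did, cells given SGI-1776 at 3750 nM were set against DMSO. HBEGF fell by 35.6%, EPGN fell by 29.9%, EREG fell by 25.2% and AREG fell by 17.5%, while ERBB2 rose by 19.9% and TGFA by 12.3%. These were 6 of 8 members, where 35.6% of all genes changed, and the members' median log2 fold change was -0.21, against 0.0086 over all genes.

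HBEGF had 12.6, 13.05 and 15.7 CPM (lowest, median, highest) with SGI-1776 at 3750 nM and 18.6, 21.3 and 23.5 CPM in DMSO. The groups did not overlap, and the log2 fold change of -0.63 ± 0.07 (adjusted p = 2.46e-08) held with libraries summed per Rep (adjusted p = 0.0226). ERBB2 was separated the other way, with 126, 129.7 and 139 CPM with SGI-1776 and 104, 109 and 116 CPM in DMSO (0.26 ± 0.04, adjusted p = 3.64e-06, and 0.0387 summed per Rep). PGAP3, which overlaps the ERBB2 locus on the other strand, also rose (0.45 ± 0.07, adjusted p = 1.66e-05), whereas MIEN1 had 0.08 ± 0.06. Their part in the ERBB2 value was not tested.

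EPGN had 3.525, 4.29 and 6.04 CPM with SGI-1776 at 3750 nM, against 5.64, 6.21 and 6.70 CPM in DMSO. One SGI-1776 library lay within the DMSO range, and the log2 fold change was -0.51 ± 0.10 (adjusted p = 7.89e-05, and 0.0285 summed per Rep). AREG had 56.5, 58.1 and 61.6 CPM with SGI-1776 and 60.5, 71.0 and 80.9 CPM in DMSO, which overlapped at the edge (-0.28 ± 0.06, adjusted p = 0.000269). TGFA had 122, 129 and 137 CPM with SGI-1776 and 111.5, 115 and 120.1 CPM in DMSO, without overlap (0.17 ± 0.04, adjusted p = 0.000499). AREG and TGFA did not pass summed per Rep (adjusted p = 0.171 and 0.272).

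EREG passed narrowly at 3750 nM of SGI-1776 (-0.42 ± 0.16, adjusted p = 0.0384), with 1.08 to 1.48 CPM, against 1.38 to 2.07 CPM in DMSO. Without any 1 of 6 libraries it did not pass: DMSO libraries 1 and 3 of Rep 2, and SGI-1776 3750 nM libraries 1 and 2 of each Rep, with log2 fold changes between -0.43 and -0.35 and adjusted p between 0.0506 and 0.105. It was also not called without the 4 libraries low in mitochondrial counts (log2 fold change -0.35, adjusted p = 0.15), with the estimated correlation (adjusted p = 0.299) or with DESeq2 (adjusted p = 0.0551). EGFR had -0.14 (95% interval -0.27 to -0.01, adjusted p = 0.0764, 0.0499 once Rep was a block, and 0.0356 with the block on sums per Rep), and BTC -0.05 (-0.16 to 0.07). EGFR passed, at -0.19 to -0.16 and adjusted p between 0.0215 and 0.0431, without any 1 of 6 libraries: DMSO library 1 or 2 of Rep 1, SGI-1776 3750 nM library 3 of Rep 1, PROTAC 1500 nM library 3 of Rep 1, or PROTAC 3750 nM library 1 of Rep 1 or 2 of Rep 2.

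At 1500 nM of SGI-1776 the same comparison called 4 members, HBEGF, EPGN and AREG lower and ERBB2 higher, where 12.9% of all genes changed. HBEGF had 13.4, 15.9 and 18.4 CPM (lowest, median, highest) with SGI-1776 at 1500 nM, below every DMSO library (18.6, 21.3 and 23.5 CPM), and fell by 24.4% (-0.40 ± 0.07, adjusted p = 0.000186). EPGN fell by 20.2% (-0.32 ± 0.09, adjusted p = 0.0186), AREG fell by 14.6% (-0.23 ± 0.06, adjusted p = 0.00704), and ERBB2 rose by 10.7% (0.15 ± 0.04, adjusted p = 0.0119). The groups overlapped for these 3 genes, and none of the 4 passed summed per Rep (adjusted p = 0.471 to 0.669). With the estimated correlation AREG (adjusted p = 0.0963), EPGN (0.308) and ERBB2 (0.23) did not pass either, and HBEGF did.

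The EPGN call was lost without library 1 of Rep 2 of DMSO or without library 2 of Rep 1 or library 3 of Rep 2 of SGI-1776 at 1500 nM (-0.30 to -0.28, adjusted p = 0.0515 to 0.0576). That of ERBB2 was lost without library 2 of Rep 2 of DMSO (0.12, adjusted p = 0.0547). TGFA had 0.08 (95% interval 0.0041 to 0.15, adjusted p = 0.171, 0.00888 once Rep was a block, and 0.187 with the block on sums per Rep), BTC -0.12 (-0.24 to -0.0020), EREG -0.10 (-0.41 to 0.21) and EGFR -0.01 (-0.13 to 0.12).

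**Figure D2:**
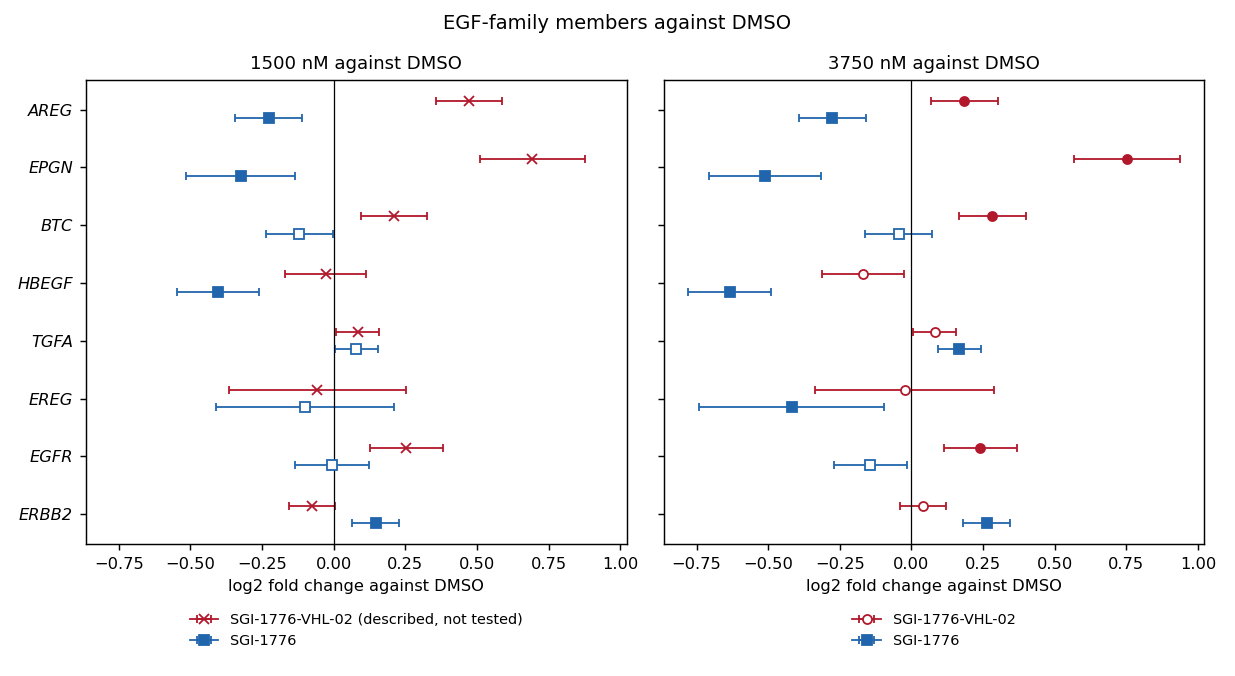
Log2 fold changes against DMSO of the 8 members at 1500 nM (left) and 3750 nM (right), with 95% intervals; red is SGI-1776-VHL-02, blue SGI-1776, filled symbols passed adjusted p 0.05, open ones did not, and crosses carry no test. At 3750 nM the AREG intervals lie on opposite sides of 0 (0.18 and -0.28), as do those of EPGN (0.75 and -0.51).

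The difference between the degrader and the inhibitor was tested directly at each dose, in 14 comparisons (8 members at 3750 nM and 6 at 1500 nM), with p-values adjusted over all 17499 genes. The compounds differ in structure by the ligase-recruiting part that makes the PROTAC. At 3750 nM AREG, EPGN, BTC, HBEGF and EGFR were higher and ERBB2 was lower with the PROTAC than with SGI-1776. These were 6 of 8 members, where 31.2% of all genes differed, and the members' median log2 fold change was 0.39, against 0.00023 over all genes. Without AREG and EPGN, which brought the family in, 4 of the 6 others differed at 3750 nM, with a median of 0.36. The 1500 nM comparison uses the PROTAC libraries by which AREG and EPGN were chosen, so these genes are described there and not tested. Of the 6 others at 1500 nM, BTC, HBEGF and EGFR were higher and ERBB2 was lower with the PROTAC, 4 of 6, where 25.2% of all genes differed, and their median was 0.15, against -0.0094 over all genes.

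EPGN differed most. At 3750 nM it had 9.63, 10.5 and 11.8 CPM (lowest, median, highest) with the PROTAC and 3.525, 4.29 and 6.04 CPM with SGI-1776, a 2.40-fold difference (log2 1.26 ± 0.09, adjusted p = 4.65e-12). At 1500 nM it had 9.42, 10.2 and 10.7 CPM with the PROTAC and 4.23, 4.81 and 5.77 CPM with SGI-1776, or 102.5% more (1.02 ± 0.09). The libraries were fully separated at both doses, and the 3750 nM difference passed summed per Rep (adjusted p = 0.000893).

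AREG had 75.7, 82.1 and 84.9 CPM with the PROTAC at 3750 nM and 56.5, 58.1 and 61.6 CPM with SGI-1776, or 37.7% more (0.46 ± 0.06, adjusted p = 1.57e-07). At 1500 nM it had 90.9, 98.8 and 108 CPM with the PROTAC and 56.0, 60.8 and 66.9 CPM with SGI-1776 (0.70 ± 0.06). Neither dose showed overlap, and the difference was close in both Reps (0.50 and 0.41 at 3750 nM, 0.71 and 0.69 at 1500 nM). The 3750 nM difference also passed summed per Rep (adjusted p = 0.0359).

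HBEGF was 38.0% higher with the PROTAC than with SGI-1776 at 3750 nM (17.8, 18.6 and 19.5 CPM with the PROTAC, 12.6, 13.05 and 15.7 CPM with SGI-1776; log2 0.46 ± 0.07, adjusted p = 5.92e-06). At 1500 nM it had 19.1, 20.3 and 23.55 CPM with the PROTAC and 13.4, 15.9 and 18.4 CPM with SGI-1776 (0.38 ± 0.07, adjusted p = 0.000149). The groups were separate at each dose, but within Reps the 1500 nM difference was 0.57 in Rep 1 and 0.20 in Rep 2. Neither HBEGF difference passed summed per Rep (adjusted p = 0.0677 at 3750 nM and 0.1975 at 1500 nM).

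At 3750 nM BTC was 25.5% higher with the PROTAC than with SGI-1776 (0.33 ± 0.06, adjusted p = 3.79e-05), and it was 25.75% higher at 1500 nM (0.33 ± 0.06, adjusted p = 5.85e-05), with no overlap at either dose. Its lowest, median and highest values at 3750 nM were 10.5, 11.8 and 12.3 CPM with the PROTAC and 8.10, 9.20 and 10.1 CPM with SGI-1776. Neither BTC difference passed summed per Rep (adjusted p = 0.0778 at 3750 nM and 0.1409 at 1500 nM). The 3750 nM call was also lost without all of Rep 1 (0.23, adjusted p = 0.0507).

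Among the receptors, EGFR had 234, 245 and 275 CPM with the PROTAC at 3750 nM and 162, 187 and 216 CPM with SGI-1776, which did not overlap (0.38 ± 0.06, adjusted p = 1.5e-05, and 0.0254 summed per Rep). At 1500 nM the EGFR difference was 0.26 ± 0.06 (adjusted p = 0.00238, but 0.0768 with the estimated correlation and 0.2018 summed per Rep) and the libraries overlapped. ERBB2 went the other way, with 101, 112 and 121.5 CPM with the PROTAC at 3750 nM and 126, 129.7 and 139 CPM with SGI-1776 (-0.22 ± 0.04, adjusted p = 4.94e-05). At 1500 nM ERBB2 had 98.1, 103 and 109.5 CPM with the PROTAC and 112, 122 and 126 CPM with SGI-1776 (-0.22 ± 0.04, adjusted p = 9.21e-05). ERBB2 did not overlap between the compounds at either dose, but it did not pass summed per Rep (adjusted p = 0.0825 at 3750 nM and 0.1507 at 1500 nM). PGAP3 was lower with the PROTAC as well (-0.36 ± 0.07 at 1500 nM, adjusted p = 0.000547, and -0.15 ± 0.07 at 3750 nM, adjusted p = 0.132).

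TGFA and EREG did not pass between the compounds in the fit without a block. TGFA differed by 0.0046 at 1500 nM (95% interval -0.07 to 0.08) and by -0.09 at 3750 nM (-0.16 to -0.01, adjusted p = 0.0708, 0.00178 once Rep was a block, and 0.137 with the block on sums per Rep). It passed at 3750 nM without library 1 or 3 of Rep 1 of SGI-1776 (-0.12 and -0.10, adjusted p = 0.0286 and 0.0467). TGFA also passed there with DESeq2 (-0.10, adjusted p = 0.0461), with library size as the only scaling (-0.14, 0.0024) and without all of Rep 1 (-0.13, 0.00624). EREG differed by 0.04 (-0.27 to 0.35) at 1500 nM and by 0.39 (0.07 to 0.72, adjusted p = 0.058, 0.0472 once Rep was a block, and 0.0844 with the block on sums per Rep) at 3750 nM. EREG passed at 3750 nM (0.39 to 0.44, adjusted p between 0.0349 and 0.0478) without library 1 or 2 of Rep 2 of SGI-1776 at 1500 nM or library 1 or 3 of Rep 2 of the PROTAC at 3750 nM. These intervals do not show that the compounds act alike on either gene.

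**Figure D3:**
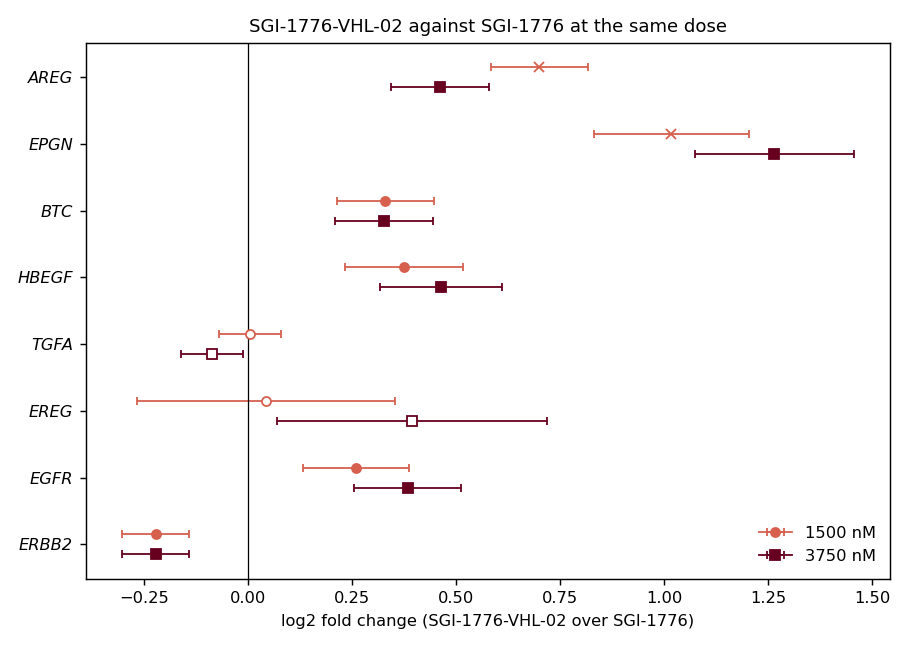
Log2 fold change of SGI-1776-VHL-02 over SGI-1776 at 1500 nM (circles) and 3750 nM (squares) for the 8 members, with 95% intervals; filled symbols passed adjusted p 0.05, and the crosses (AREG and EPGN at 1500 nM) carry no test. EPGN lies farthest right (1.02 and 1.26), ERBB2 is the one gene to the left of 0 past the threshold (-0.22 at both doses), and TGFA and EREG are open.

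For the step between the doses of 1 compound, counts are given beside the share of all genes, and nothing about the members is read from them. Between 3750 and 1500 nM of the PROTAC, ERBB2 was higher at 3750 nM, 1 of the 6 members besides AREG and EPGN, where 19.0% of all genes differed. AREG had 75.7, 82.1 and 84.9 CPM at 3750 nM and 90.9, 98.8 and 108 CPM at 1500 nM of the PROTAC, without overlap (-0.29 ± 0.06). Since AREG was chosen by its level in these 1500 nM libraries, that step is a description with no test. It was -0.18 within Rep 1 and -0.40 within Rep 2. ERBB2 differed by 0.12 ± 0.04 (adjusted p = 0.0377), and lost the call in 20 of the 30 fits that each left out 1 library (0.08 to 0.12, adjusted p up to 0.165) and with the estimated correlation (adjusted p = 0.292).

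Between 3750 and 1500 nM of SGI-1776, HBEGF was lower at 3750 nM, 1 of 8 members, where 9.15% of all genes differed. It had 12.6, 13.05 and 15.7 CPM at 3750 nM and 13.4, 15.9 and 18.4 CPM at 1500 nM, which overlapped (-0.23 ± 0.07, adjusted p = 0.0392). The call was lost in 9 of the 30 fits without 1 library (-0.23 to -0.18, adjusted p up to 0.14) and with the estimated correlation (adjusted p = 0.322). With Rep as a block TGFA (0.09, adjusted p = 0.00374) and ERBB2 (0.12, adjusted p = 0.0294) passed as well, but not with the block on sums per Rep (adjusted p = 0.246 and 0.112).

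How far the gap between the compounds differed between the doses (the gap at 3750 nM minus the gap at 1500 nM, an interaction) was called by edgeR for 0 of the 6 members besides AREG and EPGN, where it was called for 2.67% of all genes. At an unadjusted p under 0.05 it was 0 of these 6, and DESeq2 called 0 as well. The AREG interaction was -0.24 ± 0.08, with -0.20 in Rep 1 and -0.28 in Rep 2, and that of EPGN was 0.25 ± 0.13. Both rest on the libraries by which these genes were chosen and are given with no test.

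Seen as a pool, the 6 ligand transcripts summed to 387 ± 31.0 and 338.7 ± 6.15 TPM with the PROTAC at 1500 and 3750 nM (SD, n = 6). With SGI-1776 they summed to 287 ± 27.5 and 283 ± 19.5 TPM at these doses, and in DMSO to 310 ± 30.9 TPM. At each dose every PROTAC library lay above every SGI-1776 library, with 353 TPM the lowest and 326 TPM the highest at 1500 nM. AREG made up 59.1% ± 1.34 and 54.4% ± 1.67 of the pool with the PROTAC at 1500 and 3750 nM, 50.55% ± 0.389 and 49.3% ± 0.881 with SGI-1776, and 53.4% ± 1.99 in DMSO. TGFA made up 24.4% ± 0.566 and 27.4% ± 1.11 with the PROTAC, 33.8% ± 0.555 and 36.25% ± 0.997 with SGI-1776, and 29.02% ± 1.56 in DMSO. The pool and the shares, like the receptor ratio that follows, were chosen after the values were seen and carry no test.

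The ratio of EGFR to ERBB2 transcripts was 1.99 ± 0.112 with the PROTAC at 1500 nM and 1.82 ± 0.0916 at 3750 nM, against 1.43 ± 0.212 and 1.201 ± 0.158 with SGI-1776 and 1.59 ± 0.157 in DMSO. PROTAC and SGI-1776 libraries did not overlap at either dose. In the lowest SGI-1776 library at 3750 nM the ratio was 0.962, so that EGFR there lay below ERBB2 by the deposited lengths. ERBB3, the receptor of the neuregulins, which has little kinase activity and signals by pairing, was lower with the PROTAC than with SGI-1776 as ERBB2 was (-0.38 ± 0.06 at both doses, adjusted p = 8.99e-06 at 1500 nM and 4.22e-06 at 3750 nM). Summed per Rep, these differences had adjusted p = 0.05005 and 0.0168. Against DMSO at 3750 nM, ERBB3 rose with SGI-1776 (0.54 ± 0.06, adjusted p = 8.01e-09). It rose less with the PROTAC (0.16 ± 0.06, adjusted p = 0.0379, but 0.327 summed per Rep). ERBB4, the remaining receptor, averaged 0.703 ± 0.214 CPM with the PROTAC at 3750 nM and 1.09 ± 0.0891 CPM with SGI-1776 (-0.63 ± 0.21, adjusted p = 0.0203), and was named here after its values were seen.

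Other genes of the pathway were taken from 6 lists and named where they passed both in the 30-library fit and summed per Rep at 3750 nM of either compound against DMSO. A gene called with both compounds thus need not have passed summed per Rep with each. The counts that follow stand beside the 21.8% of all genes called with the PROTAC and the 35.6% called with SGI-1776 in these comparisons, and nothing particular to a list is read from them. Of 13 genes that inhibit or remove the receptors, 3 were higher and 1 lower with the PROTAC at 3750 nM (median log2 fold change 0.04), and 2 were higher and 4 lower with SGI-1776 (-0.10). ERRFI1, which encodes the feedback inhibitor MIG6 that binds the EGFR kinase domain, had 371 to 444 CPM with the PROTAC at 3750 nM, 164 to 185 CPM with SGI-1776 at that dose and 233 to 291 CPM in DMSO. The 3 groups did not overlap. ERRFI1 rose with the PROTAC (0.64 ± 0.06, adjusted p = 3.29e-09), fell with SGI-1776 (-0.57 ± 0.06, adjusted p = 1.74e-08), and differed between the compounds by 1.21 ± 0.06 (adjusted p = 1.95e-15). CBLB, a ubiquitin ligase for activated receptors, had 51.9 to 59.0 CPM with the PROTAC, 37.3 to 44.4 CPM with SGI-1776 and 33.6 to 38.5 CPM in DMSO (0.63 ± 0.05 and 0.16 ± 0.05 against DMSO, adjusted p = 4.79e-11 and 0.0164). The CBLB change with SGI-1776 did not pass summed per Rep (adjusted p = 0.278).

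Of 13 genes that respond to MAPK signalling, 4 were higher and 3 lower with the PROTAC at 3750 nM (median -0.04), and 4 were higher and 4 lower with SGI-1776 (0.03). The Sprouty genes, feedback inhibitors of receptor signalling, did not move together. SPRY4 fell with the PROTAC (-0.48 ± 0.04, adjusted p = 2.03e-10) and rose with SGI-1776 (0.33 ± 0.04, adjusted p = 1.41e-07). SPRY2 rose with the PROTAC (0.40 ± 0.04, adjusted p = 1.25e-08) and had 0.08 ± 0.04 with SGI-1776 (adjusted p = 0.167). PHLDA1 had 0.04 ± 0.04 with the PROTAC and fell with SGI-1776 (-0.39 ± 0.04, adjusted p = 1.64e-09), and DUSP4, a phosphatase of MAP kinases, rose with both (0.12 ± 0.03 and 0.27 ± 0.03, adjusted p = 0.00804 and 6.17e-08).

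Of 17 adaptor and RAS-MAPK relay genes, 0 were higher and 1 lower with the PROTAC at 3750 nM (median -0.02), and 2 were higher and 7 lower with SGI-1776 (-0.08). HRAS, a RAS GTPase, fell with both (-0.17 ± 0.04 with the PROTAC, adjusted p = 0.00343, and -0.27 ± 0.04 with SGI-1776, adjusted p = 8.66e-06). SHC1, an adaptor, had -0.03 ± 0.03 with the PROTAC and fell with SGI-1776 (-0.29 ± 0.03, adjusted p = 2.1e-08). Of 7 measured genes of ligand shedding, 1 was higher and 1 lower with the PROTAC, and 1 was higher and 3 lower with SGI-1776. ADAM12, a membrane protease, was lower with both (-0.29 ± 0.10, adjusted p = 0.0336, and -0.50 ± 0.10, adjusted p = 0.000171). With the PROTAC, ADAM12 did not pass summed per Rep (adjusted p = 0.312). Of 5 other ligand genes only EGF and NRG2 were tested. NRG2, a neuregulin, had 0.15 ± 0.06 with the PROTAC (adjusted p = 0.0891) and fell with SGI-1776 (-0.56 ± 0.06, adjusted p = 3.4e-08), and EGF averaged 3.76 ± 0.384 CPM with the PROTAC, 3.58 ± 0.494 CPM with SGI-1776 and 4.20 ± 0.586 CPM in DMSO.

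**Figure D4:**
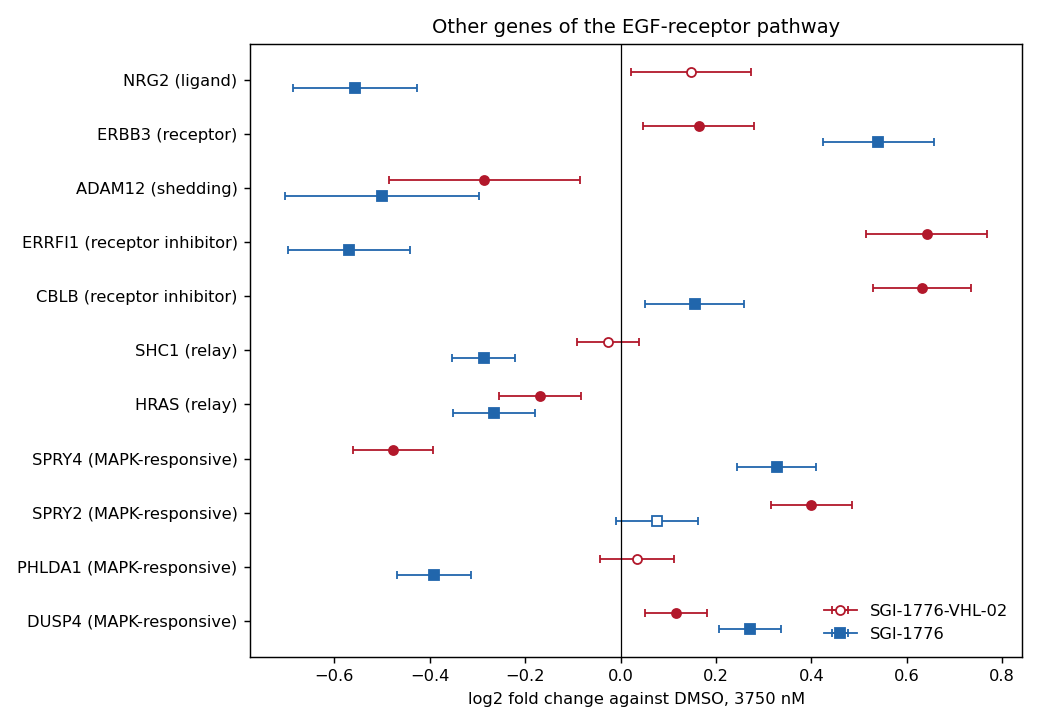
Log2 fold changes against DMSO at 3750 nM, with 95% intervals, of 11 pathway genes outside the family (their list in brackets); red circles are SGI-1776-VHL-02, blue squares SGI-1776, and filled symbols passed adjusted p 0.05. ERRFI1 (0.64 and -0.57) and SPRY4 (-0.48 and 0.33) lie on opposite sides of 0 for the 2 compounds.

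Since EPGN, EREG, AREG and BTC are neighbours, the other genes within 1000 kb of their stretch were compared. Of 50 genes in this window, 14 besides the members were tested. Between the PROTAC and SGI-1776 at 3750 nM, 2 of the 14 differed, CXCL8 (0.95, adjusted p = 0.000353) and CXCL5 (0.66, adjusted p = 0.000496), and at 1500 nM 1 did, CXCL6 (0.25, adjusted p = 0.0262), where 31.2% and 25.2% of all genes differed. The median over the 14 was 0.05 at 3750 nM and 0.03 at 1500 nM. EREG, which lies between EPGN and AREG, passed at neither dose. With the PROTAC at 3750 nM against DMSO, 2 of the 14 fell (CXCL6 -0.40 and CXCL1 -0.62) and RASSF6 (0.28) rose, where 21.8% of all genes changed. The members EPGN, AREG and BTC rose in that comparison. With SGI-1776 at 3750 nM against DMSO, 4 of the 14 fell (CXCL8 -1.08, CXCL6 -0.56, CXCL1 -0.84 and CXCL5 -0.59) and CXCL2 rose (0.52). Of all genes 35.6% changed there, and nothing particular to the stretch is read from these counts. These CXC chemokine genes were named after their values were seen.

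**Figure D5:**
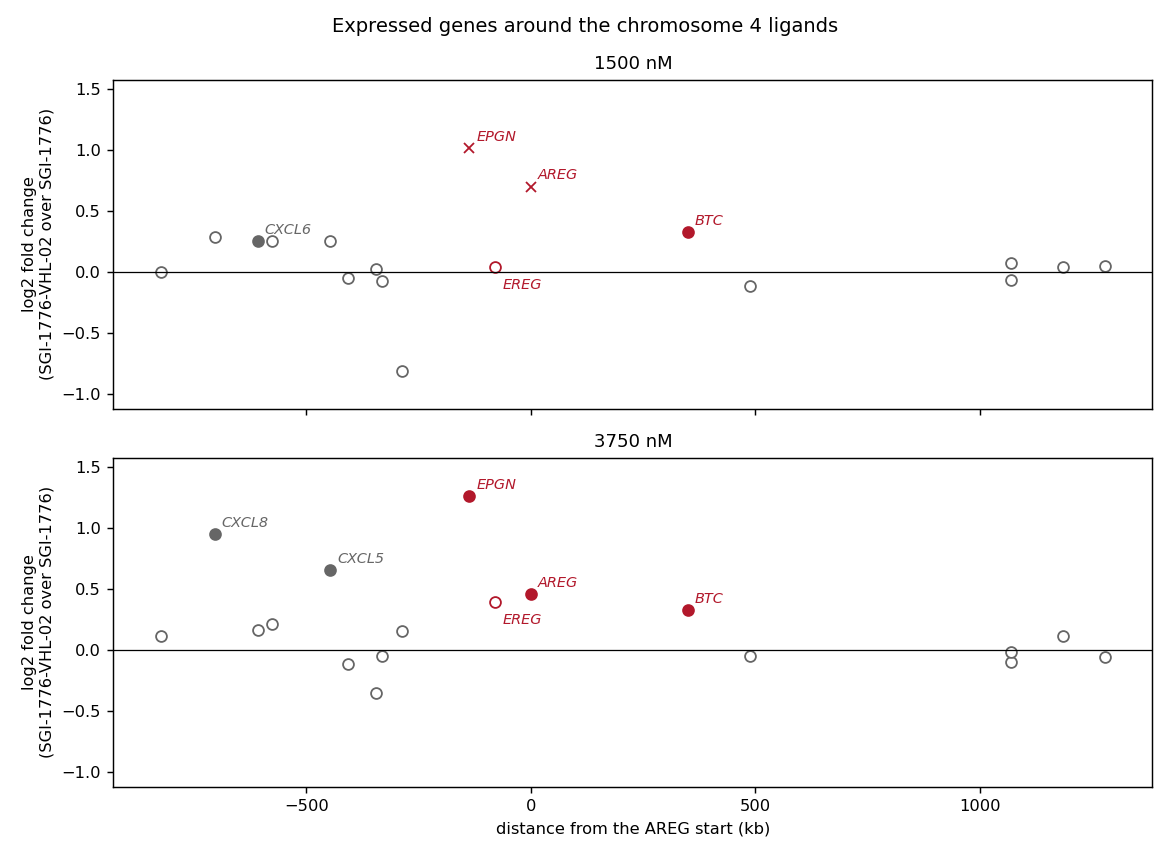
Log2 fold change of SGI-1776-VHL-02 over SGI-1776 at 1500 nM (top) and 3750 nM (bottom) for the 18 tested genes around the chromosome 4 ligands, against the distance of each gene's start from the start of AREG in kb; members are red, other genes grey, filled symbols passed adjusted p 0.05, and crosses carry no test. EPGN and AREG are crosses at 1500 nM and filled at 3750 nM, BTC is filled and EREG open at both doses, and the other filled symbols are CXCL6 (top) and CXCL8 and CXCL5 (bottom).

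Genes whose levels ran most like each member's were ranked among 10835 protein-coding genes by Pearson's r of log2 CPM over the 30 libraries, after centring on each Rep. The libraries share the 5 treatments, so r mostly follows the group means and is a description. For AREG these were EPB41L3, NAP1L1 and SRP72 (r = 0.939, 0.931 and 0.93), and for EPGN they included OSBP2 and WSCD1 (0.959 and 0.956). HBEGF ran most like NUDC, ACTN1 and SDC1 (0.962, 0.946 and 0.945), and BTC like BMI1, HERC4 and FAM107B (0.885, 0.872 and 0.868). For the receptors they were TNPO1, SERTAD2 and SLIT2 for EGFR (0.948, 0.943 and 0.941) and CLSTN3, CRELD1 and PBXIP1 for ERBB2 (0.958, 0.933 and 0.931). TGFA (TIPARP, IDI1 and ACBD3, 0.864 to 0.837) and EREG (TMEM14B, TIGD2 and UQCRH, 0.702 to 0.68) had no closer partner.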

How the data were processed

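RNA of PC3 cells was measured in 30 libraries, 6 in each of 5 groups. Per the labels, poly-T beads were used to select messenger RNA, random hexamers primed the cDNA, and a directional and a non-directional second strand are both named, so the strand setting is unknown. The authors deposited whole-number counts per gene with gene lengths. The submitters' processing notes name featureCounts 1.5.0-p3 and the builds GRCh38 and hg38. The sources used here do not give the aligner.

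The deposited counts were fitted with edgeR 4.0.16 under R 4.3.3 (filterByExpr, 17499 genes kept of 58735, TMM scaling, quasi-likelihood fit of 5 groups over 30 libraries, two-sided tests, Benjamini-Hochberg over all kept genes, threshold 0.05). CPM used TMM library sizes and TPM the deposited gene lengths. DESeq2 1.42.0, limma 3.58.1 (voom) and the other alternatives are given in the closing section. The procedure was tested on simulated data with known changes. Its criterion for recovering changed genes was limited to genes with a mean of at least 200 counts after genes below that fell short of it, so the simulation does not speak for EREG, and EPGN lies close to that level. Standard errors were obtained by dividing each log2 fold change by the square root of F, and intervals are 95%.

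Rep numbers pair the groups by one check: the Rep 2 minus Rep 1 difference correlated at 0.507 to 0.672 across genes in all 10 pairs of groups. All calls come from the fit without a Rep term, and the blocked p is printed where it changes a call. The members and the pathway lists were chosen with earlier results of these data known. All members were named. Pathway genes were named, up to 4 a list, where called in the 30-library fit and summed per Rep at 3750 nM of either compound against DMSO. Chromosome 4 neighbours were counted within 1000 kb, and the 3 most similar genes had at least 5 CPM. Counting intervals were not used: the precision comes from the spread over libraries of 22520292 to 48968707 counts. Some genes that were looked at are not reported here.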

Additional observations from a re-analysis of the deposited data

How the results depend on the processing

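The values counted here leave out SGI-1776-VHL-02 at 1500 nM against DMSO, and AREG and EPGN wherever those SGI-1776-VHL-02 libraries enter. They keep AREG and EPGN in the other comparisons with DMSO, whose libraries also entered the choice. Of these values, 26 were past the threshold. None of the 26 changed sign in any alternative run here, and 20 kept their call in all 30 fits that each left out 1 library. Calls lost numbered 19 summed per Rep (2 samples a group), 3 summed with Rep as a block, 9 with voom and the estimated correlation of libraries, 1 each with DESeq2, with library size as the only scaling and without the libraries low in mitochondrial counts (EREG with SGI-1776 at 3750 nM each time), 4 without a filter, 6 without all of Rep 1 and 6 without all of Rep 2. The block over all libraries lost 0 calls. Outside the dose steps it added 6, and in the SGI-1776 dose step it added TGFA and ERBB2 as well. Other settings also added calls outside the dose steps: 1 with DESeq2, 1 summed with Rep as a block, 3 with library size as the only scaling and 4 without all of Rep 1. The 9 lost with voom were AREG, EPGN and ERBB2 with SGI-1776 at 1500 nM, EREG at 3750 nM, AREG and EGFR with SGI-1776-VHL-02 at 3750 nM, EGFR between the compounds at 1500 nM, and the dose steps of HBEGF (SGI-1776) and ERBB2 (SGI-1776-VHL-02). Members called are counted below; counts for SGI-1776-VHL-02 at 1500 nM, by which the family was chosen, are descriptions, as are AREG and EPGN within the counts that use those libraries.

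Summed per Rep, the counts were 0 for SGI-1776 at 1500 nM against DMSO, 3 at 3750 nM, 0 and 1 for SGI-1776-VHL-02 at 1500 and 3750 nM, 2 and 3 between the compounds at 1500 and 3750 nM, and 0 for each dose step. Summed with Rep as a block, they were 0 for the SGI-1776 dose step and 1 for that of SGI-1776-VHL-02. Rep as a block over all libraries gave 3 for the SGI-1776 dose step and 1 for the interaction, and moved no other count by over 1.5 times. With voom and correlated libraries they were 1 for SGI-1776 at 1500 nM, 2 and 2 for SGI-1776-VHL-02 at 1500 and 3750 nM, and 0 and 1 for the SGI-1776 and SGI-1776-VHL-02 dose steps. The SGI-1776 dose step had 2 with DESeq2, 2 with library size as the only scaling and 0 without a filter, where the SGI-1776-VHL-02 step had 1. Leaving out 1 library or all of 1 Rep gave 2 to 5 for SGI-1776 at 1500 nM (5 without Rep 1 and 2 without Rep 2), 2 to 4 for SGI-1776-VHL-02 at 1500 nM, 1 to 2 for its dose step and 0 to 1 for that of SGI-1776.

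Sign changes occurred only in values that had not passed. EGFR with SGI-1776 at 1500 nM was 0.0203 summed per Rep, 0.0198 summed with the block, 0.000135 with DESeq2, 0.022 with library size only, 0.0023 without a filter and 0.033 without the libraries low in mitochondrial counts. TGFA between the compounds at 1500 nM was -0.0023 with DESeq2, -0.045 with library size only and -0.026 without the low-mitochondrial libraries. EREG in that comparison was -0.0058 with library size only. Without the low-mitochondrial libraries HBEGF with SGI-1776-VHL-02 at 1500 nM was 0.0046 and EREG with SGI-1776-VHL-02 at 3750 nM was 0.026. Over the fits that left out 1 library or all of 1 Rep, the sign-changing values ran between -0.25 and 0.0028 for EREG and -0.0537 and 0.0387 for EGFR with SGI-1776 at 1500 nM, and between -0.12 and 0.0137 for BTC at 3750 nM. With SGI-1776-VHL-02 at 1500 nM they ran between -0.16 and 0.0413 for EREG and -0.17 and 0.11 for HBEGF, and at 3750 nM between -0.21 and 0.15 for EREG and -0.0524 and 0.12 for ERBB2. Between the compounds at 1500 nM they ran between -0.11 and 0.22 for EREG and -0.0208 and 0.0259 for TGFA. The causes were not tested.

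The ERBB2 step between doses of SGI-1776-VHL-02 was lost without each DMSO library but library 1 of Rep 2, each SGI-1776-VHL-02 1500 nM library but 1 and 2 of Rep 2, each SGI-1776-VHL-02 3750 nM library but 1 of Rep 1, library 3 of each Rep of SGI-1776 at 1500 nM, and all of Rep 1 and library 3 of Rep 2 of SGI-1776 at 3750 nM. The HBEGF step was lost without any Rep 2 library of SGI-1776 at 1500 nM, any Rep 1 library or library 2 of Rep 2 of SGI-1776 at 3750 nM, library 2 of Rep 2 of SGI-1776-VHL-02 at 1500 nM, or library 1 of Rep 2 at 3750 nM. EREG had 29 to 97 counts a library.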

Other observations

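The Reps differed in the level of several ligands, and by unequal amounts in the groups. For AREG the log2 difference between Rep 2 and Rep 1 was 0.27 in DMSO, 0.14 and -0.06 with SGI-1776-VHL-02 at 1500 and 3750 nM, and 0.17 and 0.03 with SGI-1776 at 1500 and 3750 nM. HBEGF had 0.20 in DMSO, -0.07 and 0.07 with SGI-1776-VHL-02, and 0.31 and 0.16 with SGI-1776. TGFA, by comparison, was higher in Rep 2 in all 5 groups (0.05 to 0.14). No test was run on these values.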
